A study of Mus musculus with 10 samples.

Results

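The livers described here are those of C57BL/6J (B6) mice, an inbred strain, before and during feeding with a diet high in fat and cholesterol. The members were chosen by strain and week alone, from the labels: 4 fed arrays, of weeks 1, 4, 12 and 21 on the diet, and 1 array of week 0, which makes 5 of the 10 arrays of the study. The other 5 arrays hold DBA/2J (D2) livers taken at the same weeks. All mice were female, and each array was hybridised with pooled liver RNA of 5 mice, so no group holds a measurement of a single animal. Livers were rinsed in saline and frozen, total RNA was extracted with Trizol, and biotin-labelled targets were measured on the Affymetrix whole-genome mouse array of 3′ probe sets. No transgene, knockout or drug is named for any group. The age of the mice, the food given before week 0, the hour of collection and any fasting before it are not given in the sources used here, and age cannot be told apart from the time on the diet.

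The liver makes cholesterol from acetyl-CoA, takes it up from lipoproteins and removes it as bile acids or by export into bile. When sterols accumulate in the cell, the transcription factor SREBP2 is held in the endoplasmic reticulum and genes of sterol synthesis and uptake are transcribed less, while oxysterols activate the nuclear receptor LXR, which drives sterol export and lipogenesis. Bile acids act through the nuclear receptor FXR, whose target Nr0b2 represses genes of bile acid synthesis. C57BL/6J is a strain known for lipid accumulation and liver inflammation on atherogenic diets.

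Values are log2 of the quantile-normalised signal plus a pseudocount of 1.05, and a difference of 1 is 2-fold. A change is the mean of the 4 fed arrays minus the week 0 array with the standard error (SE) of the limma fit. The pseudocount shrinks the change of genes with low signals, while noise in a low week 0 signal can enlarge or reduce it. The 2% trimmed mean signal as deposited was 88.7, 84.8, 74.6 and 78.9 at weeks 1, 4, 12 and 21, against 55.8 at week 0, so the scale between arrays bears on directions. At the deposited scale the median of all 11061 genes tested was 0.58 above week 0, and 0.013 after normalisation. The week 4 array correlated least with week 0 (r = 0.911, against 0.950, 0.961 and 0.953 for weeks 1, 12 and 21), across genes, which are not independent replicates. The 3′ to 5′ signal ratio of Gapdh, a sign of RNA integrity, lay between 0.698 and 0.73 in the 5 arrays, but that of Actb was 1.83, 1.78, 2.41 and 2.25 at weeks 1, 4, 12 and 21, against 1.87 at week 0, higher at weeks 12 and 21. Its part in the results was not tested. All 14 hepatocyte markers were above the filter level in all 5 arrays, with albumin (Alb) at 12.64, 12.54, 12.64, 12.54 and 12.60 at weeks 0, 1, 4, 12 and 21. Most lay near the top of the scale, though others, such as Ass1 and Hnf4a, lay lower. The signal summed over 14 hepatocyte markers was between 69919.9 and 73099.8 in the fed arrays, against 75709.9 at week 0. Markers near the top, 1 of them with the same value in all 5 arrays, carry this sum, so it says little about a change. Hnf4a, a hepatocyte transcription factor, was at 11.14, 10.77, 10.61, 10.95 and 10.94 (change −0.32 ± 0.16), and its other probe sets gave −0.74, −0.67 and −0.72.

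The main question was which transcripts differed between the fed livers and the week 0 liver. In limma, with the spread taken from the fed arrays of both strains, 12 genes rose (0.108% of genes tested) and 1 fell (0.00904%) at an adjusted p under 0.05. Without adjustment, 1390 genes had p under 0.05, 872 of them higher and 518 lower. Week 0 is a single array without a spread of its own, the weeks serve as replicates, and every difference shares that array. Of the 13 called genes, 9 had a week 0 signal under 3.74, the level below which a gene's mean was not tested. The calls did not hold in every setting: 0 genes passed with a pseudocount of 16 (1381 had an unadjusted p under 0.05) or when the 5 B6 arrays were fitted alone (948 had one), and likewise with the filter at the 75th percentile, with arrays centred on the genes tested, and without the week 1, week 4 or week 21 array of D2. Without the week 21 array of B6, 1 gene passed.

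Among the called genes with clear signals, Avpr1a, the vasopressin receptor of hepatocytes, fell. It was at 7.83, 6.32, 6.13, 6.49 and 6.04 at weeks 0, 1, 4, 12 and 21, a change of −1.59 ± 0.23 (adjusted p = 0.044). All 4 fed arrays lay at least 1.34 below week 0. Ugp2, which makes the UDP-glucose used for glycogen and glucuronides, rose, with 10.30, 11.21, 11.47, 11.43 and 11.23 at the same weeks (change 1.04 ± 0.13, adjusted p = 0.0328). All 5 of its probe sets were higher in the fed mean than at week 0. Parp3, an ADP-ribosyltransferase of DNA repair, rose, with 6.33, 7.83, 8.06, 7.71 and 8.22 (change 1.63 ± 0.22), and its groups did not overlap. Prps2, a phosphoribosyl pyrophosphate synthetase, was at 5.88, 7.39, 7.28, 7.01 and 7.19 (change 1.33 ± 0.18), but the other 2 probe sets of the gene gave changes of −0.21 and 0.14. Mlkl, the executor of necroptosis, was at 2.33, 5.57, 6.68, 5.10 and 5.47 (change 3.37 ± 0.46, adjusted p = 0.0328). Rap1gap, a GTPase activator for Rap1, was at 3.44, 5.23, 5.28, 5.64 and 5.48 (change 1.97 ± 0.25). Both rose, with week 0 signals under the filter level, so the size of their rise is uncertain. The remaining 7 called genes had means under 5 over the B6 arrays. Oas2, an interferon-induced oligoadenylate synthetase, was at 1.94, 5.49, 5.60, 4.98 and 4.73 (change 3.25 ± 0.37). The changes of Klhl36, Dus2, Smtn, Man1c1, Ripor2 and Cyp1b1 were 2.79, 2.91, 3.40, 3.67, 3.78 and 3.92. These genes and Oas2 had week 0 signals under the filter level, with Cyp1b1 at 0.64 and Ripor2 at 0.73. The size of their rise is therefore uncertain. Other probe sets, all under the filter level, gave changes of 0.014, −0.56 and −0.77 for Ripor2. Those of Dus2 and Cyp1b1 gave 0.13, and 2.38 and 0.41.

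To describe genes beyond the few that passed, a second rule counted genes that lay at least 2-fold on the same side of week 0 in every fed array. By it 134 genes (1.21%) were higher and 60 (0.542%) lower. The 4 differences share the week 0 array, so their agreement is no independent repeat, and 94 of the 134 had a week 0 signal under the filter level. With a mean of at least 5 there were 53 higher and 41 lower. The excess of rises did not hold in every setting. With a pseudocount of 16, 25 genes were higher and 42 lower by this rule, and with the filter at the 75th percentile 27 and 34. The filter takes the mean over all arrays, so a gene low only at week 0 passes it more readily than one high only there. Its part in the counts of rises and falls was not tested. In all, 2956 genes (26.7%) were higher and 2591 (23.4%) lower in all 4 fed arrays. The fed mean was higher than week 0 for 5706 of the 11061 genes tested and lower for 5355. The weeks differed in how far they stood from week 0. At week 1, 619 genes were at least 2-fold higher (5.6%) and 359 lower (3.25%); at week 4, 1036 (9.37%) and 515 (4.66%). At week 12 these were 388 (3.51%) and 305 (2.76%), and at week 21, 557 (5.04%) and 310 (2.8%). On the deposited scale, where the median of all genes was above week 0, 554 genes were at least 2-fold higher and 18 lower in all 4 fed arrays, with 1137 to 3028 higher and 76 to 138 lower by week. These counts rest on 1 array per week and have no test.

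**Figure D1:**
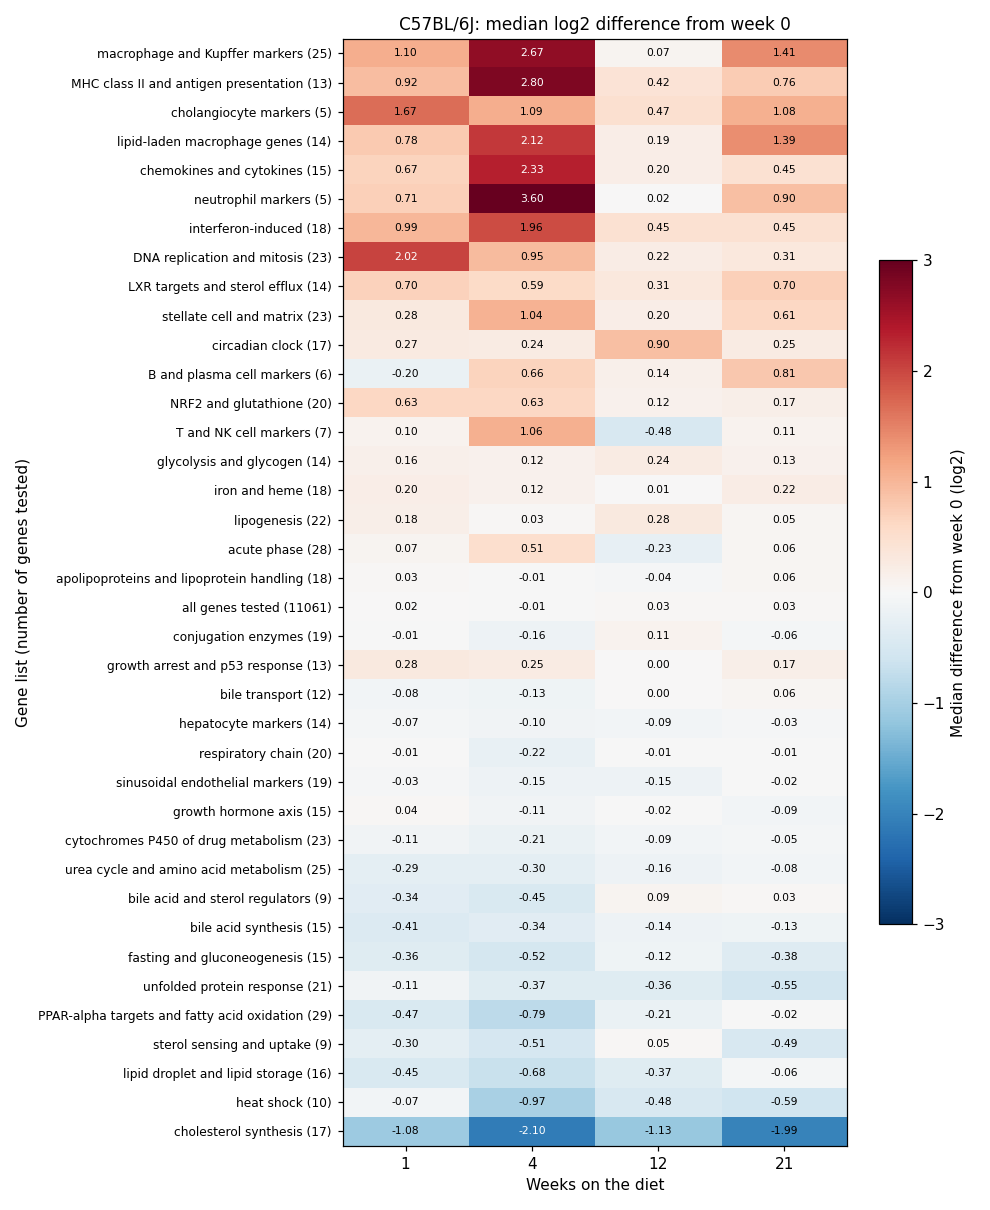
Median difference from week 0 (log2, colour and printed value) of each gene list at weeks 1, 4, 12 and 21, 1 array per week, with the number of genes tested in brackets and all genes tested as 1 row. The cholesterol synthesis row is between −2.10 and −1.08, the macrophage, class II and neutrophil rows are highest at week 4, and the DNA replication row is highest at week 1.

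Cholesterol synthesis was the gene list that stood furthest below week 0. All 17 genes tested had a lower fed mean, 14 lay below week 0 in every fed array (23.4% of all genes did) and 8 at least 2-fold below in every one (0.542% of all genes). The median change was −1.55, against 0.013 over all genes tested, and −0.97 at the deposited scale, where all genes lay 0.58 higher. By week the median was −1.08, −2.10, −1.13 and −1.99 at weeks 1, 4, 12 and 21. None of the 17 passed the adjusted test, in which the adjusted p of Sqle was 0.41. The fit also draws its spread from D2, whose week 12 array had a list median of 0.96 above its own week 0. Sqle passed when that array was left out, and in no other fit with 1 array left out. Cyp51 and Idi1 did not pass without it. The array is singled out by its values on this same list, so the pass of Sqle is no separate support.

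The enzymes of the pathway differed in how far they lay below week 0. Sqle, the squalene epoxidase and a rate-limiting step, was at 7.98, 5.0, 4.5, 4.76 and 3.80 at weeks 0, 1, 4, 12 and 21 (change −3.46 ± 1.60), so the highest fed array was 2.98 below week 0. Cyp51, the lanosterol demethylase, was at 8.53, 6.28, 5.58, 6.19 and 4.36 (change −2.92 ± 1.47). Idi1, which isomerises isopentenyl diphosphate, was at 8.82, 6.75, 5.93, 6.78 and 4.84 (change −2.75 ± 1.57). In all 3 the week 21 array was lowest and no fed array reached week 0. Fdps, the farnesyl diphosphate synthase, was at 9.31, 7.69, 6.62, 8.14 and 5.69 (change −2.27 ± 1.54). Tm7sf2, a sterol reductase, was at 10.13, 7.61, 7.20, 8.62 and 7.78 (change −2.32 ± 0.76). Msmo1, Nsdhl and Dhcr7, which act between lanosterol and cholesterol, had changes of −2.03, −2.02 and −1.59. Hmgcs1, the cytosolic HMG-CoA synthase at the entry of the pathway, was at 10.62, 9.68, 9.60, 9.62 and 9.34 (change −1.07 ± 0.94). All its fed arrays were below week 0, by less than those of Sqle, Cyp51 and Idi1. Fdft1, the squalene synthase, was at 8.49, 8.46, 7.97, 9.0 and 8.18 (change −0.09 ± 0.57). Its week 12 array was above week 0. Ebp and Sc5d, late enzymes, were at −0.55 and −0.28 in change.

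Promoters are shown for 3 of these genes, since every member of the list had a lower fed mean, as the 250 bases before the RefSeq start on mouse GRCm38.p6, 5′ to 3′ on the gene's strand. Capitals mark the sterol regulatory element core (letters TCACNCCAC, in Hmgcs1) and the CCAAT box (letters CCAAT), each searched on both strands, so that ATTGG is a CCAAT box on the other strand. The windows are chr13:119690101-119690350, plus strand, for Hmgcs1, chr5:4104698-4104947, minus strand, for Cyp51, and chr13:8885356-8885605, plus strand, for Idi1.
Hmgcs1: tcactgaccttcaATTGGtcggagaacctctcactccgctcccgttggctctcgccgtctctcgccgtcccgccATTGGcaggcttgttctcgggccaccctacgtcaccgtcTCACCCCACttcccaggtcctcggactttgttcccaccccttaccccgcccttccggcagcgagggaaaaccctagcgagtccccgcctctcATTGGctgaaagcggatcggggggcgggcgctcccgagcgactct
Cyp51: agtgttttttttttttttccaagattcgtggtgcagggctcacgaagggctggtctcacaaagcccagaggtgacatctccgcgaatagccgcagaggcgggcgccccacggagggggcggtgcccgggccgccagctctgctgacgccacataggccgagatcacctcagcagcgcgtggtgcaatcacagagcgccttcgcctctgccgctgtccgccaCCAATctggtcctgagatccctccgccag
Idi1: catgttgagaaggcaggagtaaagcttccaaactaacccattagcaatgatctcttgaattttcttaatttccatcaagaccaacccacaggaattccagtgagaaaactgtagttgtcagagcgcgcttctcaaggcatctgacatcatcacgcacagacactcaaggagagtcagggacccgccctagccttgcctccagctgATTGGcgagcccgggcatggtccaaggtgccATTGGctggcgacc
The core starts at base −137 from the start of Hmgcs1, whose CCAAT boxes begin at −237, −176 and −45. The box begins at −29 in Cyp51, and at −45 and −14 in Idi1. Of the 17 list genes, 14 had a promoter entry, and 13 of these (92.9%) held CCAAT, compared with 36% of 8999 promoters of tested genes and 34.5% of 27025 mouse promoters of the same length. The core was in 1 of 14 (7.14%), compared with 0.989% of tested genes and 1.04% of all promoters. A match describes these letters only, and a lack of match says nothing about binding of the factor.

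Genes that sense and take up sterols were less uniform. The list of 9 genes had a median of −0.46, or 0.062 at the deposited scale, with none passing. Insig1, which retains the SREBP complex when sterols are plentiful, was at 8.94, 8.70, 8.43, 9.26 and 6.97 at weeks 0, 1, 4, 12 and 21 (change −0.60 ± 0.90), low in the week 21 array alone. Insig2, a related gene of the same family, was at 11.52, 10.60, 9.85, 8.74 and 10.88 (change −1.5 ± 0.76), with all fed arrays below week 0. Srebf2, which encodes SREBP2, had a change of −0.78 ± 0.42. Stard4, a carrier of cholesterol within the cell, was at 7.76, 7.5, 7.03, 8.06 and 5.96 and overlapped week 0.

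Genes of sterol export and LXR targets lay on the other side. Of 14 tested, 11 had a higher fed mean, 8 were higher in every fed array (26.7% of all genes were) and 2 at least 2-fold higher in each (1.21% of all genes). The median was 0.67 and none passed the adjusted test. Abcg5, a subunit of the transporter that exports sterols into bile, was at 9.01, 10.75, 10.78, 10.27 and 10.28 at weeks 0, 1, 4, 12 and 21 (change 1.5 ± 0.33, adjusted p = 0.148). Abcg8, its partner, was at 8.40, 9.56, 9.84, 9.28 and 9.22 (change 1.08 ± 0.34). Both were above week 0 in all 4 fed arrays. Srebf1, the LXR target that drives lipogenesis, was at 8.02, 10.73, 10.73, 10.59 and 9.24 (change 2.30 ± 0.62, adjusted p = 0.227), with week 21 the lowest fed array. Abca1, which loads cholesterol onto nascent HDL, was at 9.94, 10.82, 11.08, 10.41 and 10.79 (change 0.84 ± 0.29). Nr1h3, the gene of LXR alpha, had a change of −0.052 ± 0.14. Lpl, also a macrophage gene, was at 7.78, 9.41, 10.70, 7.60 and 9.90 (change 1.62 ± 1.07). It was highest at weeks 4 and 21, as were the macrophage markers by list median, and also above week 0 at week 1. This probe set was below week 0 at week 12. The other probe set of Lpl was at 5.20, 7.59, 8.60, 5.99 and 7.90 (change 2.32), above week 0 at every fed week.

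Bile acid genes differed by step. Of 15 synthesis genes, 2 were at least 2-fold lower in every fed array (0.542% of all genes were). The list median was −0.22, or 0.073 at the deposited scale, where its sign turned. Cyp8b1, the 12-alpha-hydroxylase that sets the share of cholic acid, was at 10.92, 3.36, 3.63, 8.36 and 2.63 at weeks 0, 1, 4, 12 and 21 (change −6.42 ± 1.95, adjusted p = 0.261). It lay near background at weeks 1, 4 and 21 and well above it at week 12. Cyp7a1, the first enzyme of the classical route, was at 9.67, 5.98, 7.46, 9.73 and 8.15 (change −1.84 ± 1.0). Its week 12 array was slightly above week 0, so its groups overlapped. Cyp39a1, an oxysterol 7-alpha-hydroxylase, was at 10.17, 8.81, 7.52, 8.35 and 9.01 (change −1.75 ± 0.63), below week 0 throughout. Cyp27a1, of the alternative route, had a change of −0.52 ± 0.22. Nr0b2, the FXR target SHP, was at 7.74, 9.58, 8.83, 8.52 and 9.0 (change 1.25 ± 0.34, adjusted p = 0.231), above week 0 in all 4 fed arrays.

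Transporters of the hepatocyte membranes lay on both sides of week 0. Slco1a1, an uptake transporter for bile acids and other anions, was at 8.70, 6.86, 1.39, 6.28 and 3.47 at weeks 0, 1, 4, 12 and 21 (change −4.20 ± 1.70). The spread between fed arrays was wide, but all were below week 0. Abcb1a, a multidrug exporter, was at 5.64, 8.20, 7.49, 7.30 and 7.83 (change 2.07 ± 0.32, adjusted p = 0.0549). Abcc4, a basolateral exporter, was at 5.28, 6.51, 7.05, 7.09 and 6.82 (change 1.58 ± 0.33). Both were at least 2-fold higher in every fed array. Over all 12 transport genes the median was −0.051, or 0.40 at the deposited scale, and Abcb11, the bile salt export pump, had a change of 0.31 ± 0.42.

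**Figure D2:**
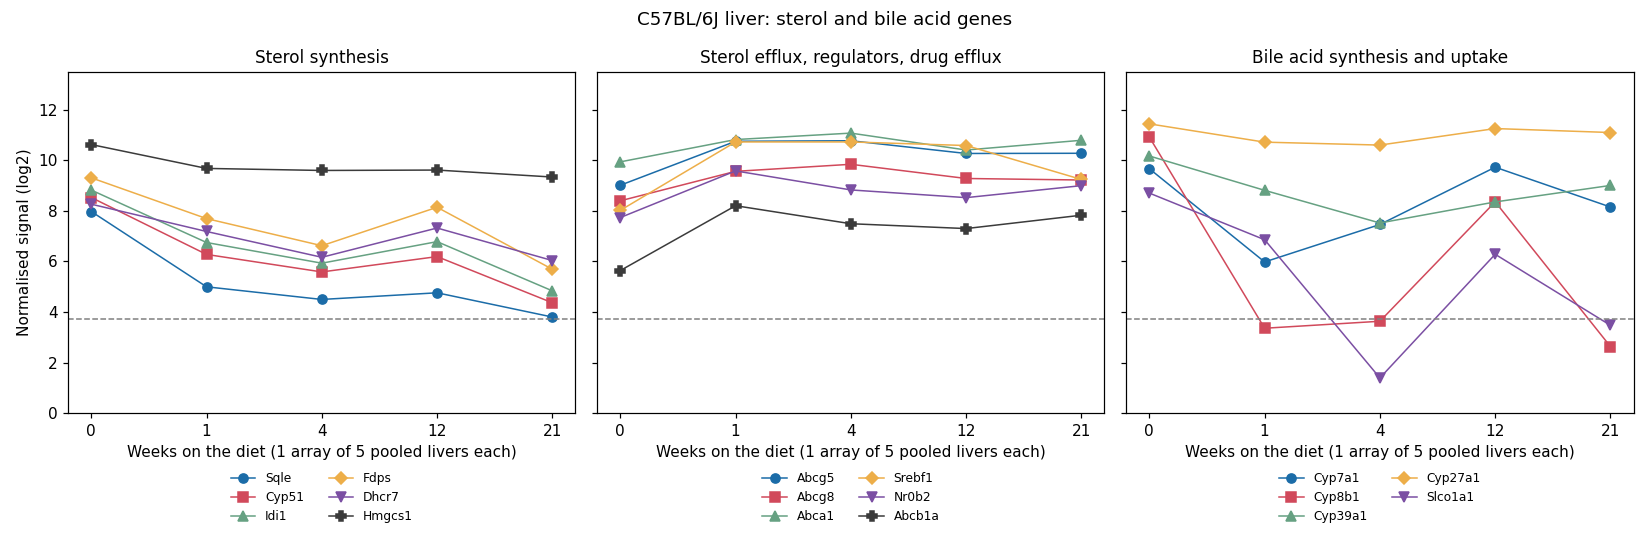
Normalised signal (log2) of sterol synthesis genes, of efflux genes and regulators, and of bile acid genes in C57BL/6J liver against weeks on the diet, 1 point per array; the dashed line is the filter level at 3.74. Sqle, Cyp51 and Idi1 are below week 0 throughout with week 21 lowest, Abcg5 and Abcg8 are above it throughout, and Cyp8b1 is at 8.36 at week 12.

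Lipogenic genes lay on both sides of week 0. The median of 22 was 0.087, with 12 higher and 10 lower in fed mean and none passing. Elovl6, which elongates saturated fatty acids, was at 7.0, 9.28, 8.47, 9.61 and 8.22 at weeks 0, 1, 4, 12 and 21 (change 1.90 ± 0.68). Pnpla3, a lipid droplet hydrolase and SREBP1 target, was at 2.06, 5.09, 4.55, 4.12 and 3.90 (change 2.36 ± 0.87). Both were above week 0 in all fed arrays by at least 1, though Pnpla3 started under the filter level. Fasn, the fatty acid synthase, was at 8.81, 10.50, 9.78, 10.16 and 9.11 (change 1.08 ± 0.68). Scd1, the main desaturase, was at 12.26, 12.78, 12.81, 12.75 and 12.74 (change 0.51 ± 0.12), close to the top of the scale. Its other probe set, with lower signals, was at 9.54, 11.37, 11.13, 10.70 and 10.51 (change 1.39). Acacb, the carboxylase that makes malonyl-CoA at mitochondria, was at 7.59, 5.99, 4.80, 7.49 and 6.52 (change −1.39 ± 0.96). Its other probe set, under the filter level, gave 1.68, and with the mean of both the change turned to 0.14. Lpin1, a phosphatidate phosphatase induced in fasting, had 11.17, 9.02, 9.64, 11.02 and 10.27 (change −1.19 ± 0.79). Acacb and Lpin1 were lowest at weeks 1 and 4 and near week 0 at week 12.

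Genes of fatty acid oxidation and other PPAR-alpha targets lay mostly below week 0 after normalisation. Of 29 tested, 25 had a lower fed mean, with a median of −0.40 that was 0.03 at the deposited scale, so the direction of the list depends on the scale. It was −0.79 at week 4 and −0.022 at week 21. Pdk4, the kinase that spares glucose in fasting, was at 9.42, 6.38, 4.79, 6.97 and 6.88 at weeks 0, 1, 4, 12 and 21 (change −3.17 ± 0.68, adjusted p = 0.144), at least 2.46 below week 0 in every fed array. Fgf21, which the liver secretes in fasting, was at 6.29, 4.75, 3.79, 4.02 and 5.28 (change −1.82 ± 0.52). Acot1, a cytosolic thioesterase, was at 10.72, 9.12, 7.72, 9.76 and 10.22 (change −1.52 ± 0.73). The core enzymes lay closer to week 0. Cpt1a, the gate of mitochondrial entry, had a change of −0.33 ± 0.29, and Acadm and Acadl, which open the cycle, had −0.31 and −0.046. The change of Acadl turned to 0.27 with the mean of probe sets.

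The fasting and gluconeogenesis list had a median of −0.32 over 15 genes, or 0.14 at the deposited scale, and 14 were lower in fed mean. Igfbp1, a binding protein repressed by insulin, was at 11.96, 10.72, 10.91, 11.54 and 10.32 at weeks 0, 1, 4, 12 and 21 (change −1.09 ± 0.53). Ppargc1a, the coactivator of gluconeogenesis, was at 7.20, 6.01, 6.02, 6.49 and 6.49 (change −0.95 ± 0.33). In both all fed arrays were below week 0. A different feeding state of the week 0 mice cannot be told apart from the diet, since no source used here gives it. Of the lipid droplet list (16 genes, median −0.47, or 0.13 at the deposited scale), G0s2, an inhibitor of lipolysis, was at 10.64, 8.65, 7.89, 10.04 and 9.32 (change −1.66 ± 0.60). Plin2, the main droplet coat protein of hepatocytes, was at 11.58, 11.08, 10.62, 10.88 and 11.39 (change −0.59 ± 0.24). Cd36, a fatty acid transporter, had a change of 0.19 ± 0.53.

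Clock genes lay on both sides of week 0. Of 17 tested, 3 were at least 2-fold higher (1.21% of all genes were) and 2 at least 2-fold lower (0.542%) in every fed array, and the median was 0.47. Dbp, an output factor of the clock, was at 5.58, 7.84, 9.64, 9.94 and 8.94 at weeks 0, 1, 4, 12 and 21 (change 3.51 ± 0.60, adjusted p = 0.0702). Nr1d1, the repressor REV-ERB alpha, was at 3.02, 4.69, 6.56, 6.26 and 6.18 (change 2.90 ± 0.58), with week 0 under the filter level. Per3 was at 4.37, 5.95, 5.58, 7.06 and 6.35 (change 1.87 ± 0.46). All 3 lay above week 0 in each fed array. The other probe sets of Per3 gave changes of 1.59, 1.55, 2.35, 1.01 and −0.13, of which that with 1.01 was under the filter level. Arntl, the gene of the activator BMAL1, was at 7.19, 5.57, 4.79, 4.0 and 5.28 (change −2.28 ± 0.65). Its partner gene Clock was at 8.02, 6.81, 6.5, 6.22 and 7.08 (change −1.37 ± 0.36). Cry1, a late repressor of the cycle, was at 7.91, 6.88, 4.65, 6.39 and 6.88 (change −1.71 ± 0.77). Nfil3, which opposes DBP at its sites, was at 8.39, 7.60, 6.94, 7.0 and 6.82 (change −1.30 ± 0.46). These 4 lay below week 0 in each fed array. Rora, another clock regulator, had a change of −0.14 ± 0.17. The hour of collection is not given, so a different hour at week 0 cannot be told apart from the diet.

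The promoter of Per3 is shown because it alone among 15 clock promoters held the D-box, the site of DBP and its relatives, searched as TTATGTAA or TTACGTAA on both strands. The window is chr4:151044666-151044915 on GRCm38.p6, minus strand, from RefSeq, with the D-boxes in capitals, starting at bases −205 and −158.
Per3: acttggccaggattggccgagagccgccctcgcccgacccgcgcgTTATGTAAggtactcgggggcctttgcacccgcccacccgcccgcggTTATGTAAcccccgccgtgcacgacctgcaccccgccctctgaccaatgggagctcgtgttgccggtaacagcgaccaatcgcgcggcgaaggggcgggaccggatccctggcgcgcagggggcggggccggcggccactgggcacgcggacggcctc
The D-box was in 6.67% of the clock promoters, compared with 0.689% of tested genes and 0.962% of all promoters. The E-box, the site of CLOCK and BMAL1, searched as CACGTG, was in 4 of 15 (26.7%), compared with 8.69% and 6.05%, and the genes were Per1, Cry1, Tef and Ciart. No factor was measured at these sites.

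**Figure D3:**
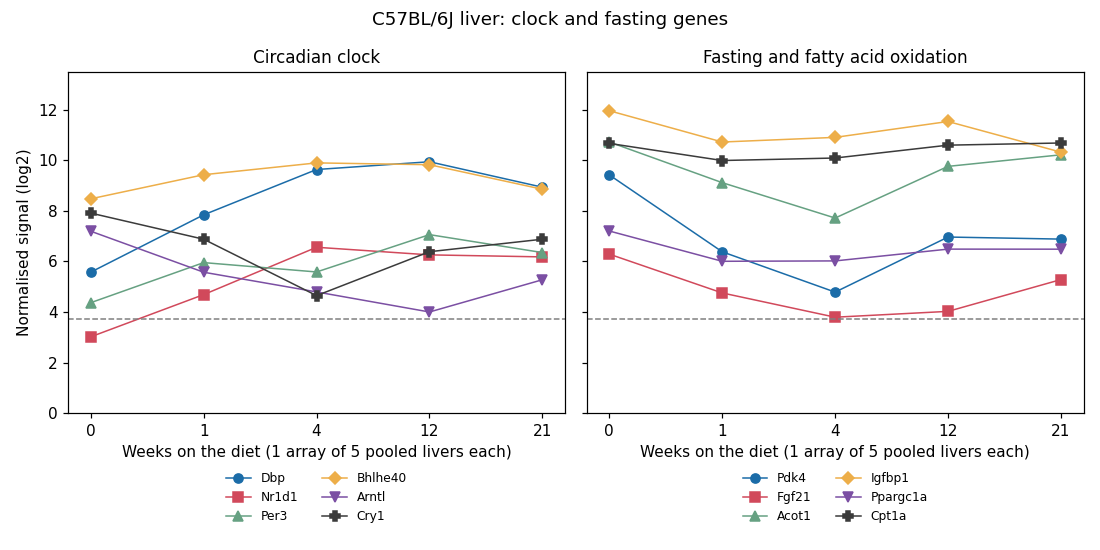
Normalised signal (log2) of clock genes and of fasting and fatty acid oxidation genes in C57BL/6J liver against weeks on the diet, 1 point per array; the dashed line is the filter level at 3.74. Dbp, Nr1d1 and Per3 are above week 0 and Arntl and Cry1 below it at each later week, and Pdk4 is lowest at week 4, at 4.79.

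Markers of macrophages were higher in fed livers, most at week 4 and least at week 12. Of 25 tested, 24 had a higher fed mean, 14 were higher in all 4 fed arrays (26.7% of all genes were) and none passed the adjusted test. The median difference from week 0 was 1.10, 2.67, 0.072 and 1.41 at weeks 1, 4, 12 and 21, and 22 of the 25 were at least 2-fold higher at week 4 (9.37% of all genes were). The signal summed over all 25 was 10144, 28714, 4979 and 14856 in the fed arrays, against 4828 at week 0, and no marker was under the filter level throughout. Without the week 4 array the median change of the list was 0.88, against 1.36 with it. In pooled tissue, more cells of a type and more RNA per cell cannot be told apart.

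Lyz2, the macrophage lysozyme, was at 7.70, 9.71, 11.93, 8.63 and 10.81 at weeks 0, 1, 4, 12 and 21 (change 2.57 ± 0.94, adjusted p = 0.325), above week 0 throughout. Cd68, a lysosomal marker, was at 5.83, 7.14, 9.13, 5.90 and 8.30 (change 1.79 ± 0.91). Clec7a, the receptor Dectin-1, was at 6.19, 7.53, 10.23, 6.97 and 9.37 (change 2.34 ± 1.02). Both were within 1 of week 0 at week 12. Markers of resident Kupffer cells differed among themselves. Cd5l, a secreted protein of these cells, was at 8.93, 10.60, 11.35, 9.19 and 11.18 (change 1.65 ± 0.68), above week 0 throughout. Marco, a scavenger receptor, was at 6.03, 7.75, 10.16, 5.04 and 6.82 (change 1.41 ± 1.47). Vsig4, a complement receptor, was at 8.56, 9.39, 9.47, 8.36 and 9.97 (change 0.73 ± 0.52). Clec4f, which is specific to Kupffer cells, was at 8.63, 9.48, 9.06, 8.35 and 9.21 (change 0.40 ± 0.35). Timd4, a marker of embryonic Kupffer cells, was at 5.15, 6.52, 6.84, 3.69 and 5.05 (change 0.37 ± 0.95). Marco, Vsig4, Clec4f and Timd4 had week 12 below week 0. Cd163, a haemoglobin scavenger receptor, was the 1 marker with a lower fed mean, at 7.52, 6.74, 6.10, 5.67 and 3.77 (change −1.95 ± 0.90), lower at each later time point.

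Genes of lipid-laden macrophages lay mostly above week 0. Gpnmb, a lysosomal membrane glycoprotein, was at 3.11, 5.04, 8.74, 6.51 and 9.56 at weeks 0, 1, 4, 12 and 21 (change 4.35 ± 1.36, adjusted p = 0.265), with the week 21 array highest. Lgals3, galectin-3, was at 5.49, 7.62, 10.36, 7.01 and 9.64 (change 3.17 ± 1.06). Mmp12, the macrophage elastase, was at 2.61, 4.78, 6.51, 4.47 and 7.41 (change 3.18 ± 1.53). In all 3 every fed array was above week 0 by at least 1, but the week 0 signals of Gpnmb and Mmp12 were under the filter level, so the size of their change is uncertain. Itgax, the integrin CD11c, was at 3.89, 4.98, 7.67, 4.65 and 6.22 (change 1.99 ± 0.90). Over 14 genes the median was 1.04, and 3 were at least 2-fold higher in every fed array (1.21% of all genes were). Plin2 and Atp6v0d2, a proton pump subunit, were below week 0 in all 4 fed arrays, with changes of −0.59 and −1.08, and Ctsk, cathepsin K, had 0.16. Trem2, a lipid receptor of macrophages whose mean was too low to be tested, was at 4.63, 3.46, 2.03, 3.65 and 2.91. D2 carries a known null allele of Gpnmb, so it was not set against D2.

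Antigen presentation and interferon genes were also highest at week 4. All 13 class II and antigen presentation genes had a higher fed mean (median 1.36, and 2.80 at week 4), as did 5706 of all 11061 genes tested. All 18 interferon-induced genes had one too (median 0.86, and 1.96 at week 4), and of these Oas2 passed. H2-Eb1, a class II chain, was at 7.35, 8.80, 11.71, 8.39 and 9.46 at weeks 0, 1, 4, 12 and 21 (change 2.24 ± 0.97). Cd74, the invariant chain, was at 8.18, 9.87, 12.11, 9.05 and 10.25 (change 2.14 ± 0.84). Gbp2, an interferon-induced GTPase, was at 5.42, 7.54, 9.99, 6.06 and 6.29 (change 2.05 ± 1.15). Cxcl9, a chemokine for T cells, was at 6.56, 8.70, 11.42, 7.31 and 6.57 (change 1.94 ± 1.40). All 4 genes were highest at week 4, when the summed macrophage signal was also highest. The part of those cells in these values was not tested. Ctss, a cathepsin counted in both lists, was the middle gene of the class II list and of the macrophage list, both over all fed arrays and without week 4, so these medians are the value of 1 gene. Without the week 4 array the class II median was 0.88 and the interferon median 0.54. Cxcl9 was level with week 0 at week 21, while Cxcl1, a chemokine for neutrophils, was at 4.82, 6.88, 9.47, 7.32 and 6.91 (change 2.83 ± 0.83) and stayed above week 0, though its other probe sets gave changes of 3.32 and 0.57.

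Acute phase genes lay highest at week 4. Saa2, a serum amyloid A of hepatocytes, was at 7.23, 9.04, 12.13, 6.99 and 9.16 at weeks 0, 1, 4, 12 and 21 (change 2.10 ± 1.38). Saa1 was at 9.0, 10.93, 12.55, 8.66 and 10.90 (change 1.76 ± 1.09). Lcn2, lipocalin 2, was at 8.55, 9.27, 12.15, 6.29 and 10.17 (change 0.91 ± 1.61), above week 0 at weeks 1, 4 and 21 and below it at week 12. These groups overlapped. The median of 28 acute phase genes was 0.51 at week 4 and −0.23 at week 12, and the abundant Hp, haptoglobin, had a change of 0.019 ± 0.11, which turned to −0.32 relative to all genes with arrays scaled to one median. Saa1 and Saa2 are near-identical copies whose probe sets may share signal. S100a8, a granule protein of neutrophils, was at 3.32, 4.41, 8.16, 4.16 and 5.38, under the filter level at week 0. Its partner S100a9 was at 3.82, 4.52, 7.68, 3.92 and 4.70. The summed signal of the neutrophil list (12 markers measured, 5 tested) was 744, 5358, 216 and 1329 in fed arrays, against 474 at week 0, with Cxcr2 under the filter level throughout. Lcn2 carries most of this sum at every week but week 12; without it the sum was 129.7, 818, 139 and 180.4, against 99.3 at week 0, so that week 12 lay above week 0. T and NK cell markers summed to 258, 1600.4, 181 and 325, against 203 at week 0, with Cd4 and Cd8b1 under that level throughout. Ccl5, also in the chemokine list, carries most of the week 4 value; without it the sum was 189, 413, 159 and 232, against 168 at week 0. Prf1, perforin, was at 4.38, 3.98, 3.78, 3.74 and 4.03, below week 0 in every fed array. Leaving out the strongest marker was chosen after seeing the data.

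DNA replication genes were highest at week 1. Of 23 tested, 22 were at least 2-fold higher at week 1 (5.6% of all genes were) and 2 at week 21 (5.04%). The list median was 2.02, 0.95, 0.22 and 0.31 at weeks 1, 4, 12 and 21. Mcm5, a subunit of the replicative helicase, was at 3.38, 8.10, 5.90, 4.38 and 3.79 at weeks 0, 1, 4, 12 and 21, and Mcm6 at 4.64, 8.36, 6.22, 5.20 and 4.95. Mki67, a marker of cycling cells, was at 3.55, 6.55, 5.82, 4.11 and 3.88. Mcm5 and Mki67 were under the filter level at week 0. Top2a, the mitotic topoisomerase, was at 4.08, 6.51, 5.30, 3.99 and 3.51. Week 1 was highest in each of the 4 genes and week 4 next. Ccnd1, cyclin D1, was at 7.75, 9.75, 8.22, 7.87 and 8.53. Pcna, the sliding clamp, was at 8.49, 9.98, 9.19, 8.97 and 8.76. Rrm2, a subunit of ribonucleotide reductase, was at 7.13, 8.49, 6.13, 6.71 and 6.89, lowest at week 4. The cell cycle inhibitor Cdkn1a (p21) was at 9.59, 8.61, 7.35, 5.85 and 8.78 (change −1.94 ± 0.97), below week 0 in all fed arrays and lowest at week 12. Without the week 1 array the median change of the list was 0.46, against 0.75 with it. With 1 array per week these weekly differences have no test, and whether hepatocytes or other cells carried them was not tested.

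**Figure D4:**
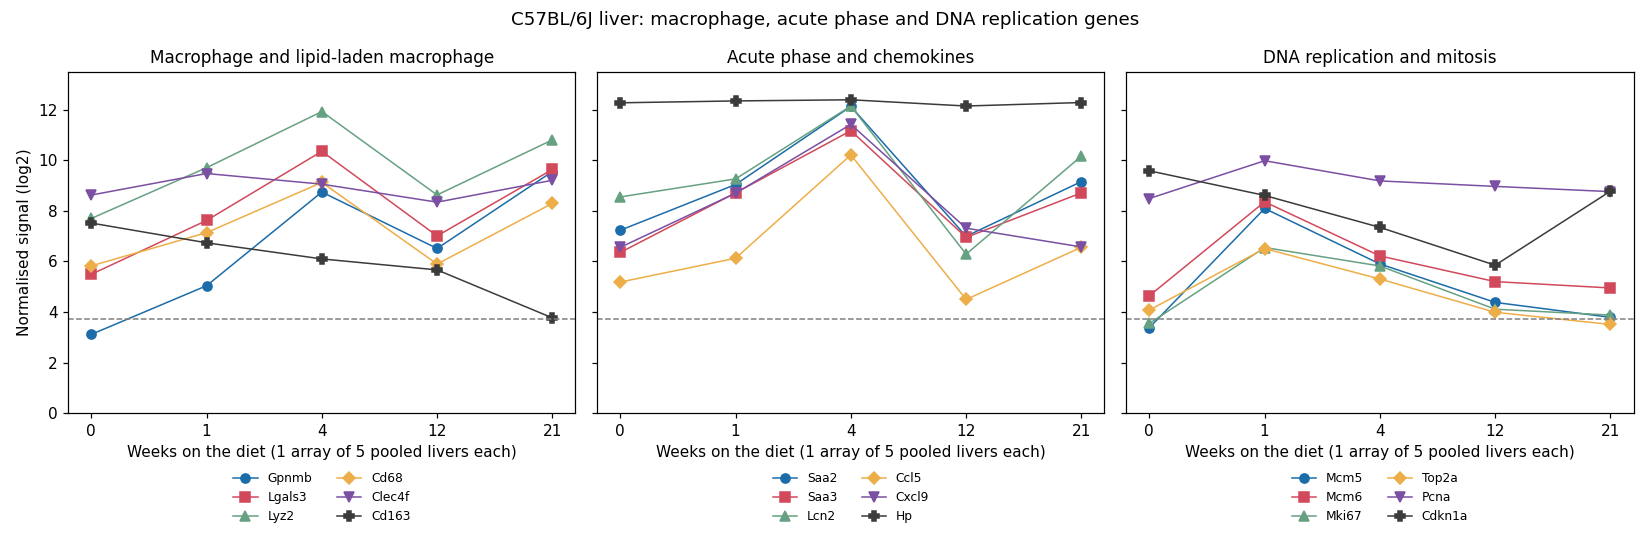
Normalised signal (log2) of macrophage genes, of acute phase genes and chemokines, and of DNA replication genes with Cdkn1a in C57BL/6J liver against weeks on the diet, 1 point per array; the dashed line is the filter level at 3.74. Lgals3, Lyz2, Cd68, Saa2, Lcn2, Ccl5 and Cxcl9 are highest at week 4, Gpnmb at week 21, Clec4f at week 1 and Cd163 at week 0. At week 12 Cd68 is near its week 0 value, while Lgals3 is above and Lcn2 below theirs. Mcm5 peaks at week 1, at 8.10.

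Matrix and stellate cell genes had higher fed means. All 23 had a higher fed mean, 10 in every fed array (26.7% of all genes were), with a median of 0.57 and none passing. Col1a1, the fibrillar collagen of scars, was at 4.69, 6.12, 7.59, 4.56 and 6.56 at weeks 0, 1, 4, 12 and 21 (change 1.52 ± 1.43). Col3a1 was at 7.98, 8.88, 10.32, 7.88 and 8.66 (change 0.96 ± 0.68). Both were highest at week 4 and did not exceed week 0 at week 12. Reln and Lrat, markers of quiescent stellate cells, had changes of 0.085 ± 0.20 and 0.52 ± 0.30. That of Reln turned to −0.13 with the mean of probe sets. The summed signal of 25 matrix genes was 4100.1 to 7965 in fed arrays, against 3667 at week 0. Sinusoidal endothelial markers summed to 2877 to 3142 in fed arrays, against 3038 at week 0. Krt8, a keratin of hepatocytes and bile ducts, was at 8.90, 10.56, 10.37, 9.37 and 9.98 at weeks 0, 1, 4, 12 and 21 (change 1.17 ± 0.43). Its partner Krt18 was at 9.10, 10.34, 10.20, 9.12 and 9.69 (change 0.73 ± 0.39). Prom1, a progenitor marker, was at 4.76, 8.5, 7.74, 5.35 and 6.73 (change 2.32 ± 0.96), highest at weeks 1 and 4. The duct markers Krt7 and Cftr were under the filter level in all 5 arrays, and Epcam was at 4.89, 3.83, 3.48, 3.90 and 4.76.

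Drug-metabolising genes included some of the lowest fed values. Cyp2b10, the classical target of the receptor CAR, was at 10.94, 9.22, 7.13, 8.54 and 8.76 at weeks 0, 1, 4, 12 and 21 (change −2.53 ± 0.75). Cyp3a44, a female-biased P450, was at 7.68, 5.04, 4.25, 4.76 and 4.73 (change −2.98 ± 0.56). Sult3a1, a female-biased sulfotransferase, was at 9.67, 0.79, 2.60, 7.09 and 4.5 (change −5.92 ± 1.75), near background at week 1. Cyp17a1, a steroid hydroxylase also transcribed in mouse liver, was at 10.11, 6.51, 5.06, 7.39 and 7.67 (change −3.45 ± 1.14). In these 4 genes every fed array was below week 0. The medians of 23 P450 genes and 19 conjugation genes were −0.15 and 0.0036, against 0.013 for all genes. With arrays scaled to one median they were −0.32 and −0.15, against 0.11 for all genes. On the other side, Gstm3, a glutathione transferase and NRF2 target, was at 8.84, 12.39, 12.10, 9.22 and 11.24 (change 2.40 ± 1.13), high at weeks 1, 4 and 21, and Gsta2 at 9.66, 11.16, 11.10, 10.47 and 10.70 (change 1.20 ± 0.5). Nqo1, another NRF2 target, had a change of −0.0041 ± 0.24. Glutathione transferases form families of similar sequence, and their probe sets may share signal.

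Chaperone genes lay below week 0 after normalisation. The heat shock list had a median of −0.61 over 10 genes and the unfolded protein response list −0.32 over 21, or −0.12 and 0.17 at the deposited scale, where the list of the unfolded protein response changed sign. Hspa1b, the inducible HSP70, was at 11.07, 10.01, 7.78, 8.77 and 8.21 at weeks 0, 1, 4, 12 and 21 (change −2.37 ± 0.83), below week 0 in each fed array. Pdia4, a disulfide isomerase of the endoplasmic reticulum, was at 6.96, 5.82, 5.79, 5.49 and 5.45 (change −1.32 ± 0.47), also below throughout, while the stress factor Atf3 was at 4.60, 6.44, 6.30, 4.96 and 5.37 (change 1.17 ± 0.56). Genes of the respiratory chain (20, median −0.07) and apolipoprotein genes (18, median 0.032) had medians of −0.15 and −0.25 with arrays scaled to one median.

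The response of B6 was last set against that of D2 in the same fit. A test of the difference between the responses called 1 gene (0.00904%), Clcn5, a chloride transporter, with a change of −0.16 in B6 and 3.51 in D2 (difference −3.67 ± 0.36, adjusted p = 0.0203). The call was lost with week as a block, with the mean of probe sets, and without any 1 fed array other than D2 week 12. Its probe set can bind related transcripts, and the other 3 probe sets of the gene gave 0.088, 0.19 and 1.11 in B6, the last 2 under the filter level. In all, 674 genes had an unadjusted p under 0.05. The D2 arrays held 145 genes (1.31%) at least 2-fold higher and 61 (0.551%) at least 2-fold lower in every fed array. Of the 134 B6 genes, 14 were among the D2 ones and 88 (65.7%) had a higher D2 fed mean, compared with 50.3% of all genes. Of the 60 lower ones, 13 were shared and 56 (93.3%) had a lower D2 fed mean, compared with 49.7% of all genes. The median change of those 60 was −1.76 in B6 and −1.25 in D2, and that of the 134 was 1.82 in B6 and 0.28 in D2. Both sets were chosen by their B6 values, so a smaller change in D2 is partly built in. Of the 134, 94 had a B6 week 0 signal under the filter level. The medians therefore do not show whether rises or falls were shared more between the strains.

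By list, the median change of cholesterol synthesis was −1.55 in B6 and −1.23 in D2, and that of the clock 0.47 in B6 and 0.72 in D2. Macrophage markers had 1.36 in B6 and 0.25 in D2, interferon-induced genes 0.86 in B6 and −0.061 in D2, matrix genes 0.57 in B6 and −0.24 in D2, and DNA replication genes 0.75 in B6 and −0.21 in D2. LXR targets had 0.67 in B6 and 0.14 in D2. None of these genes passed the test of the difference. Srebf1 differed between the responses by 1.28 ± 0.87 (adjusted p = 0.89), Lyz2 by 1.98 ± 1.33 (adjusted p = 0.887) and Cyp8b1 by −3.38 ± 2.76 (adjusted p = 0.924). The 95% intervals of these differences were −0.67 to 3.23, −1.01 to 4.97 and −9.57 to 2.80.

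**Figure D5:**
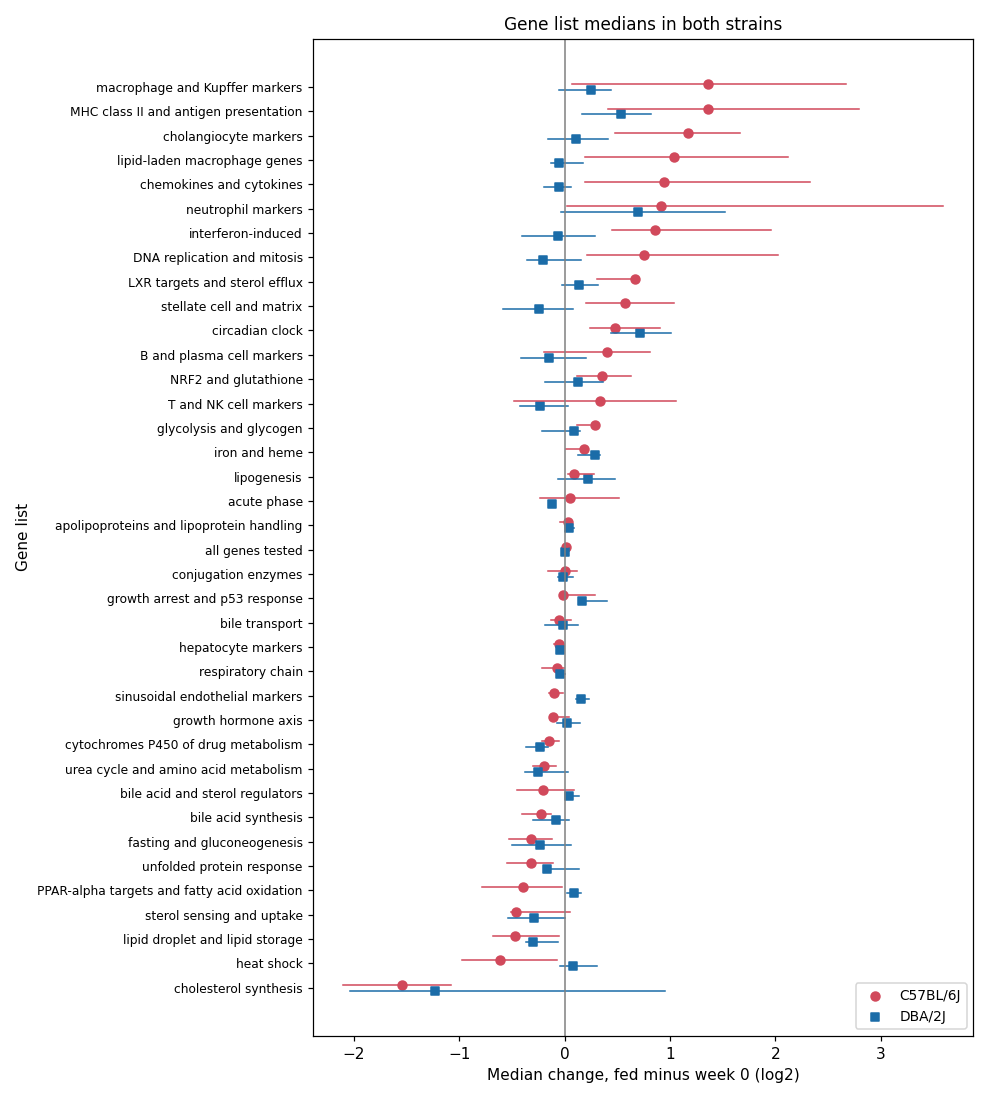
Median change (fed minus week 0, log2) of each gene list in C57BL/6J (red circles) and DBA/2J (blue squares), with lines from the lowest to the highest weekly median. The macrophage, interferon and matrix lists lie further right in C57BL/6J, and the cholesterol synthesis list lies left of 0 in both strains; the difference was tested per gene and not per list.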

How the data were processed

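Liver RNA of C57BL/6J and DBA/2J mice was measured on 10 Affymetrix arrays, 1 per strain and week, grouped by strain and week from the labels. The authors deposited signal intensities on a linear scale, computed with GCOS per the submitters' processing notes; its version and further steps are not given in the sources used here. Of 45101 probe sets, 64 controls were left out, 34945 had 1 gene symbol, 932 several and 9160 none in the platform annotation from GEO, and only those with 1 were used.

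Intensities were quantile normalised over the 10 arrays and log2 transformed after adding 1.05, which is the 10th percentile of all values deposited. Each gene was read by its probe set of highest mean and tested where that mean exceeded the 50th percentile of probe set means (3.74), which left 11061 of 18193 genes. limma 3.58.1 (lmFit, eBayes with trend, R 4.3.3) was fitted to 4 groups with 6 residual degrees of freedom and Benjamini-Hochberg adjustment at 0.05. The p-values measure the spread between weeks and pools, and the number of arrays limits the precision. In data simulated for the comparison of B6 fed livers with week 0, 39 of 100 genes changed by 1 and 68 of 100 changed by 2 (log2) were called, and 7 of 10861 unchanged genes. The simulated noise was independent between genes and arrays, had the spread of the fed arrays also at week 0, and held no scale difference between arrays. These shares therefore describe the fit under that noise and may not hold for the measured arrays.

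Members and the 38 gene lists, written from textbook knowledge, were chosen with earlier results of these data known; 79 of 750 list entries had no single-symbol probe set and were not used here. Named genes were the 15 largest called changes each way with a mean of at least 5, up to 5 members of each list by absolute change and every called gene, the 5 genes standing highest and lowest in each B6 array, the largest called differences from D2, and 34 chosen lipid, clock, inflammation and proliferation genes; not all are printed, and 35 genes outside this rule were chosen after their values were seen. Promoters came from RefSeq tables of GRCm38.p6. Figures were drawn with Python 3.11.15 and matplotlib 3.10.9. Alternatives were other pseudocounts, scales, filters, probe set rules, variance models and designs, and each array left out; centring on the tested genes was chosen after seeing the data.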

Additional observations from a re-analysis of the deposited data

Results flagged for a closer look

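A single fed array stood apart from the other 3 (Dixon's ratio above its 95% critical value) in 4 cases. Chance gives this in about 1 of 20 groups, and 143 genes and 37 lists were screened. Cxcl1 was at 9.47 at week 4, with 6.88, 7.32 and 6.91 at weeks 1, 12 and 21. Srebf1 was at 9.24 at week 21, with 10.73, 10.73 and 10.59 at weeks 1, 4 and 12. The clock list had a median difference from week 0 of 0.90 at week 12, with 0.27, 0.24 and 0.25 at weeks 1, 4 and 21. Its 17 genes lay on both sides of week 0, so each of these medians is the value of 1 middle gene. That gene was Tef at weeks 12 and 21. The respiratory chain list had −0.22 at week 4 with −0.012, −0.0057 and −0.013 at weeks 1, 12 and 21.

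The responses of the strains differed for Clcn5 by the test, by −3.67 ± 0.36 (adjusted p = 0.0203), with a change of −0.16 in B6 and 3.51 in D2. Of all genes tested, 26.7% were higher and 23.4% lower than week 0 in all 4 fed B6 arrays. The share of all genes on opposite sides in the strains was not counted, so no excess among the 143 genes screened is shown. For 5 further genes every fed array lay on 1 side of week 0 in B6 and on the other side in D2, and the test of the difference was not passed. These were Oas2 (change 3.25 in B6 and −0.68 in D2, difference 3.93 ± 0.52, adjusted p = 0.129), Itgax (1.99 and −0.55, difference 2.53 ± 1.28, adjusted p = 0.846), Mki67 (1.54 and −0.71, difference 2.25 ± 1.23, adjusted p = 0.859), Mcm6 (1.54 and −0.64, difference 2.18 ± 1.55, adjusted p = 0.902) and Acadm (−0.31 and 0.25, difference −0.56 ± 0.26, adjusted p = 0.819). The same pattern held for the medians of 2 lists, PPAR-alpha targets (−0.40 in B6 and 0.091 in D2, median of the differences per gene −0.51) and sinusoidal endothelial markers (−0.10 in B6 and 0.15 in D2, −0.31). The B6 medians turn with the scale: PPAR-alpha targets were at 0.03 at the deposited scale, and sinusoidal endothelial markers at 0.51 there and at 0.031 with arrays scaled to one median. For the lists the difference was not tested.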

How the results depend on the processing

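Counts of called genes depended strongly on the processing; 12 genes were higher and 1 lower as reported. The higher and lower counts were 1938 and 8 on the deposited scale, 31 and 2 without the variance trend, 19 and 1 with the filter at the 25th percentile, 15 and 0 with arrays scaled to one median, 9 and 0 with no filter, and 0 and 2 with a floor of 16. Both were 0 with a pseudocount of 16, the filter at the 75th percentile, only the B6 arrays, and arrays centred on the genes tested, chosen after seeing the data. Leaving out 1 array gave 0 to 17 higher and 0 to 5 lower. Counts were 1 and 0 without B6 week 21, 4 and 2 without D2 week 12, and 0 and 0 without D2 week 1, 4 or 21. Leaving out the B6 week 0 array leaves no contrast. The 1 gene that differed between strains became 0 without the trend, with a floor or pseudocount of 16, with the mean of probe sets and with week as a block, and 0 to 1 with an array left out.

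Genes at least 2-fold higher at weeks 1, 4, 12 and 21 numbered 2975, 3028, 1137 and 1879 on the deposited scale (lower 76, 136, 138 and 100, in all 4 arrays 554 higher and 18 lower). With a pseudocount of 16 they numbered 296, 684, 140 and 250 (lower 162, 291, 129 and 128, in all 4 arrays 25 higher and 42 lower). With the filter at the 75th percentile they numbered 203, 356, 106 and 167 (lower 143, 248, 111 and 115, in all 4 arrays 27 higher and 34 lower). With this pseudocount and with this filter, fewer genes were higher than lower in all 4 arrays, the reverse of the 134 and 60 reported. The LXR median was 0.41 centred on the genes tested, 0.48 relative to all genes on one median and on the deposited scale, and 0.88 with the mean of probe sets. The hepatocyte median was −0.48 centred, and −0.41 on both other scales. With 1 array left out, list medians ran from 0.46 to 1.00 for DNA replication, 0.61 to 0.67 for LXR targets, 0.88 to 1.74 for class II, −1.66 to −1.37 for cholesterol synthesis, −0.07 to −0.04 for hepatocytes and 0.88 to 1.77 for macrophages.

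Of 2955 values of 143 named genes, 2763 kept direction and side of the threshold, 130 lost a call, 40 gained one and 22 changed sign. These were, with the mean of probe sets, Acacb at 0.14, Acadl at 0.27, Clcn5 at 0.31 and Reln at −0.13; centred on the genes tested, Hp at −0.39 and Reln at −0.027; and relative to all genes on one median and on the deposited scale, Hp at −0.32 and Nqo1 at 0.039. With 1 array left out, changes that turned ran from −0.10 to 0.038 for Acadl, −0.058 to 0.46 for Cd36, −0.29 to 0.054 for Fdft1, −0.014 to 0.068 for Hp, −0.10 to 0.10 for Nqo1, −0.53 to 1.0 for Ppp1r3g, −0.0066 to 0.15 for Reln, −0.55 to 0.24 for Rrm2, −0.11 to 0.74 for Stmn1 and −0.065 to 0.99 for Timd4. The causes were not tested.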

Other observations

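Several genes had their most extreme B6 value at a single week. With 1 array a week these differences have no test. At week 1, Cyp2c55, a P450 of the liver and gut, was at 6.06, 9.87, 7.46, 5.68 and 6.28 at weeks 0, 1, 4, 12 and 21, and Stmn1, which destabilises microtubules in dividing cells, at 6.94, 8.98, 7.26, 6.44 and 6.79. Mt1 and Mt2, the metallothioneins that bind zinc and copper, were lowest at week 1. Mt1 was at 12.07, 9.81, 11.51, 11.62 and 11.23, and Mt2 at 10.94, 8.05, 10.63, 10.31 and 9.32. At week 4, Ubd, a ubiquitin-like protein induced by cytokines, was at 3.47, 6.02, 10.10, 4.15 and 5.51, under the filter level at week 0, and Fpr2, a chemoattractant receptor, at 4.72, 5.86, 9.04, 4.21 and 4.92. Neither gene was more than 0.36 above its week 0 value at any week in D2.

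At week 12, Ppp1r3g, which targets protein phosphatase 1 to glycogen, was at 5.68, 5.80, 5.74, 8.49 and 3.90 in B6 and 6.23, 5.87, 6.56, 7.85 and 5.46 in D2 at the same weeks, so week 12 was highest in both strains. Ptgds, a prostaglandin D synthase, was at 6.53, 8.58, 7.13, 4.45 and 9.84 in B6 and 6.32, 7.18, 6.27, 4.06 and 7.27 in D2, lowest at week 12 in both. At week 21, immunoglobulin transcripts were highest: Ighm, the mu heavy chain, was at 4.82, 5.05, 6.70, 5.51 and 8.29. The summed signal of 9 B and plasma cell markers was 130.2, 321, 191 and 547 at weeks 1, 4, 12 and 21, against 183 at week 0. Without Ighm it was 98.1, 218, 147 and 236, against 156, so that week 12 lay below week 0. Mup3, a major urinary protein, was at 12.49, 10.73, 10.13, 12.47 and 9.64 in B6 and 12.48, 12.60, 12.51, 12.47 and 12.47 in D2, low at weeks 1, 4 and 21 in B6. Major urinary protein genes are near-identical copies, so the gene read is uncertain. Gadd45a, a growth arrest gene, was at 1.80, 5.69, 6.05, 6.29 and 3.88 in B6 (change 3.68 ± 0.91, adjusted p = 0.189). Its week 0 value lay below the level that the filter set for a gene's mean.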
